A study of Bos taurus with 16 samples.

Results

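The question here is what prostaglandin F2 alpha (PGF2A) does to the transcripts of bovine (Bos taurus) luteal cells that also receive interferon tau (IFNT). The comparison takes the 4 samples treated with IFNT and the 4 treated with IFNT and PGF2A together (IFNT+PGF2A), which make 8 of the 16 samples of the series, paired by the number 1 to 4 in their labels. The other 8 samples, 4 control and 4 PGF2A, serve as the setting without IFNT and share the estimate of the spread. All groups were primary mixed luteal steroidogenic cells from corpora lutea removed from cows on days 10 to 12 of the cycle, kept in Ham's F12 medium with gentamycin and ITS, left to attach overnight and then cultured for 24 hours in medium with luteinizing hormone (LH) at 10 ng/mL. IFNT was given at 1 ng/mL and PGF2A at 10 ng/mL. Each sample pooled triplicate wells, and nothing in the labels ties a number to 1 cow. The p-values therefore cover only the variation among these cultures, part of which may be technical.

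PGF2A triggers regression of the corpus luteum. It binds PTGFR, a receptor coupled to Gq proteins, which through phospholipase C raises calcium and activates protein kinase C and the ERK branch of the MAP kinases. Transcripts that respond early to this pathway include immediate early genes, MAP kinase phosphatases and ligands of the EGF family. IFNT is the type I interferon by which the ruminant conceptus signals pregnancy, and it drives the interferon-stimulated genes through the JAK and STAT pathway.

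Reads assigned to genes ran from 23786067 to 25906276 per sample. Values are normalized counts, that is reads scaled by the size factor of their sample, and changes are differences of log2(normalized count + 0.5), which understates the change of low genes. All 6 steroidogenic markers, STAR, CYP11A1 and HSD3B1 among them, were expressed, with a summed level of 30293 to 41355 with IFNT and 21920.4 to 36355 with IFNT+PGF2A. Fibroblast, pericyte and endothelial markers were present too, so these are mixed cultures in which fewer cells of a type and less RNA per cell cannot be told apart. IFNT sample 4 stood apart: on the first principal component of the 8 samples (41.8% of the variance) it lay at 77.74, while the other 7 lay between -26.74 and 25.76, with IFNT+PGF2A sample 4 highest among them. A gene's log2 difference printed below that moved by more than 1.5 times without number 4 is given with that value as well.

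When PGF2A was added to IFNT, 78 genes rose and 21 fell, which is 0.552% and 0.149% of the 14122 genes tested (limma with the sample number as a block, Benjamini-Hochberg adjusted p under 0.05). The rises included cyclin D1, the EGF family ligands EREG and HBEGF, EGR transcription factors, the MAP kinase phosphatase DUSP5, and matrix metalloproteinases. The falls were smaller, with a median log2 change of -0.45 against 0.75 for the rises, and included 2 glutathione transferases, 2 enzymes of cholesterol synthesis, the claudin CLDN11 and the collagen prolyl hydroxylase subunit P4HA3. Of the 99 genes, 17 changed at least 2-fold, all of them upward, and 41 changed less than 1.5-fold. Every one of the 99 changed the same way in 4 of 4 pairs, as did 18% of all genes tested. In 37 of the 99 the 4 values of one group did not overlap with those of the other, against 1.31% of all genes tested. Both follow in part from the selection, since the 99 were chosen by a test on these same pairs. Between pairs the median change of the 78 rises was 0.66, 0.78, 0.54 and 0.70 for numbers 1 to 4. The median change of all tested genes was 0.01, 51.2% of them had a positive difference, and 0.701% passed in either direction. The list counts below stand beside these shares.

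Without the block 1 gene passed, CCND1, and 356 had an unadjusted p under 0.05, against 1380 with it. A blocked fit of the 8 compared samples alone called 1 gene, HBA1 (863 at an unadjusted p under 0.05). The counts also moved with each number: limma called 0 genes when number 1 or number 2 was left out of every group (1107 and 896 at an unadjusted p under 0.05), 10 without number 3 and 334 without number 4. Without number 4, 97 of the 99 genes passed again in the same direction, and LOC614614 and HDAC9 were not (adjusted p = 0.078 and 0.057).

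**Figure D1:**
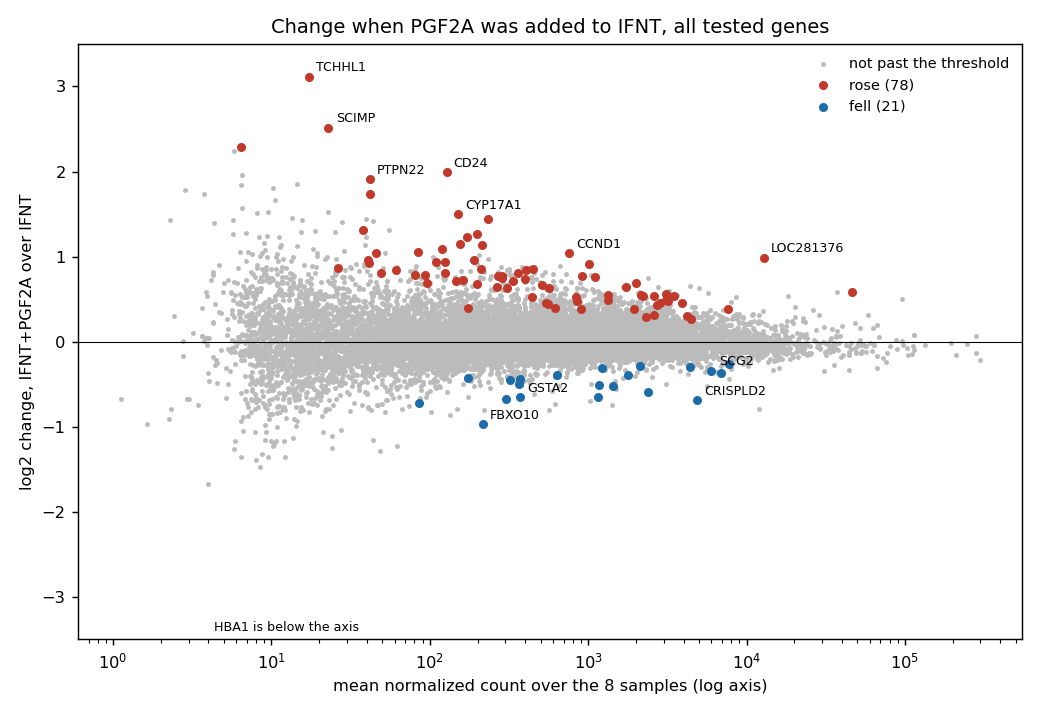
Log2 change of each of the 14122 tested genes when PGF2A was added to IFNT, against its mean normalized count over the 8 samples (log axis). Red points are the 78 genes that rose and blue points the 21 that fell; all 21 blue points lie within 1 log2 unit of zero, and the HBA1 point lies below the plotted range.

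The response of the receptor transcript differed between numbers. PTGFR stood at 1319.6, 2196, 1626 and 269.8 normalized counts in IFNT samples 1 to 4 and at 549.9, 1039, 701 and 456 with IFNT+PGF2A. Numbers 1 to 3 were lower after PGF2A and number 4 was higher; its IFNT sample had the lowest value of all 8. With all numbers the difference did not pass (log2 difference -0.70, 95% interval -1.34 to -0.05, adjusted p = 0.46), while without number 4 PTGFR fell by 1.18 on the log2 scale (adjusted p = 5e-05). Without IFNT its difference was -1.09 (adjusted p = 0.3). Of the 19 tested genes for the receptor, Gq proteins, phospholipase C, IP3 receptors, protein kinase C and their RAS exchange factors, 0 passed in limma, edgeR or DESeq2 (2 at an unadjusted p under 0.05 in limma), with a median difference of 0.08. RASGRP1, a RAS exchange factor activated by diacylglycerol, had the smallest p among them, with 112, 139, 111 and 34.9 counts in the IFNT samples and 113, 211, 128 and 118 with IFNT+PGF2A (difference 0.64, adjusted p = 0.32). Most of that difference lay in number 4, and without it the difference was 0.27.

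Downstream of the receptor, feedback genes of the MAP kinases had mostly positive differences, few of which passed. Of 19 tested, 2 rose and 0 fell, and the median was 0.21. A positive difference was seen in 17 of the 19, against 51.2% of all tested genes. DUSP5, a nuclear phosphatase that inactivates ERK, was 215, 250.1, 218 and 161 with IFNT and 352, 489.7, 365 and 243 with IFNT+PGF2A (log2 change 0.75, SE 0.12, adjusted p = 0.016). It rose in each pair, and the lowest value with PGF2A, that of number 4, lay inside the IFNT range. PHLDA1, a pleckstrin homology domain protein, went from 1009.9, 1088, 1102 and 1127 to 1489, 1639, 1596 and 1599.9 (log2 change 0.55, SE 0.08, adjusted p = 0.012). Its groups did not overlap, and the samples within a group lay close together. DUSP6, the cytoplasmic ERK phosphatase, differed by 0.35 (adjusted p = 0.14) and SPRY4, an inhibitor of RAS signalling, by 0.39 (adjusted p = 0.22), each higher in 4 of 4 pairs.

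Of 25 tested genes of the AP-1, EGR and NR4A families and other early transcription factors, 2 rose and 0 fell, and 22 had a positive difference (median 0.19). EGR1, a zinc finger factor induced by ERK, was 1386, 1981, 2926 and 1069 with IFNT and 2127, 3052, 3666 and 1599.9 with both (log2 change 0.54, SE 0.10, adjusted p = 0.036). EGR2, its close relative, went from 66.9, 91.8, 71.9 and 62.6 to 98.6, 148, 125 and 105 (log2 change 0.69, SE 0.14, adjusted p = 0.037). EGR1 varied widely between numbers, so its groups overlapped although it rose in every pair, whereas the EGR2 groups did not overlap. FOS, the AP-1 subunit that responds first to many stimuli, was 1070.1 ± 203 with IFNT and 1106 ± 167 with both (SD, n = 4; difference 0.05, 95% interval -0.16 to 0.27, and 0.01 without number 4). FOSL1, the later AP-1 subunit, differed by 0.48 (adjusted p = 0.057) and the orphan nuclear receptor NR4A1 by 0.58 (adjusted p = 0.072). Both missed the threshold with all numbers and passed without number 4, at 0.62 and 0.73 (adjusted p = 0.0011 and 0.0045).

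A pair of EGF receptor ligands rose. EREG, epiregulin, which drives granulosa and cumulus cells after the LH surge, was 125, 138, 235 and 41 with IFNT and 352, 332, 461 and 171 with IFNT+PGF2A (log2 change 1.44, SE 0.26, adjusted p = 0.026). Number 4 was lowest in both groups and rose most, and the groups overlapped. HBEGF, the heparin-binding ligand, went from 146, 141, 169.5 and 137 to 280.3, 328, 314 and 178 (log2 change 0.86, SE 0.11, adjusted p = 0.0075). The IFNT samples lay close together and below every IFNT+PGF2A sample, with number 4 rising least. AREG, amphiregulin, was higher in 4 of 4 pairs without passing (difference 0.56, adjusted p = 0.12). Of the 12 tested ligands, receptors and sheddases, 2 rose, 0 fell and 11 had a positive difference, with a median of 0.37.

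**Figure D2:**
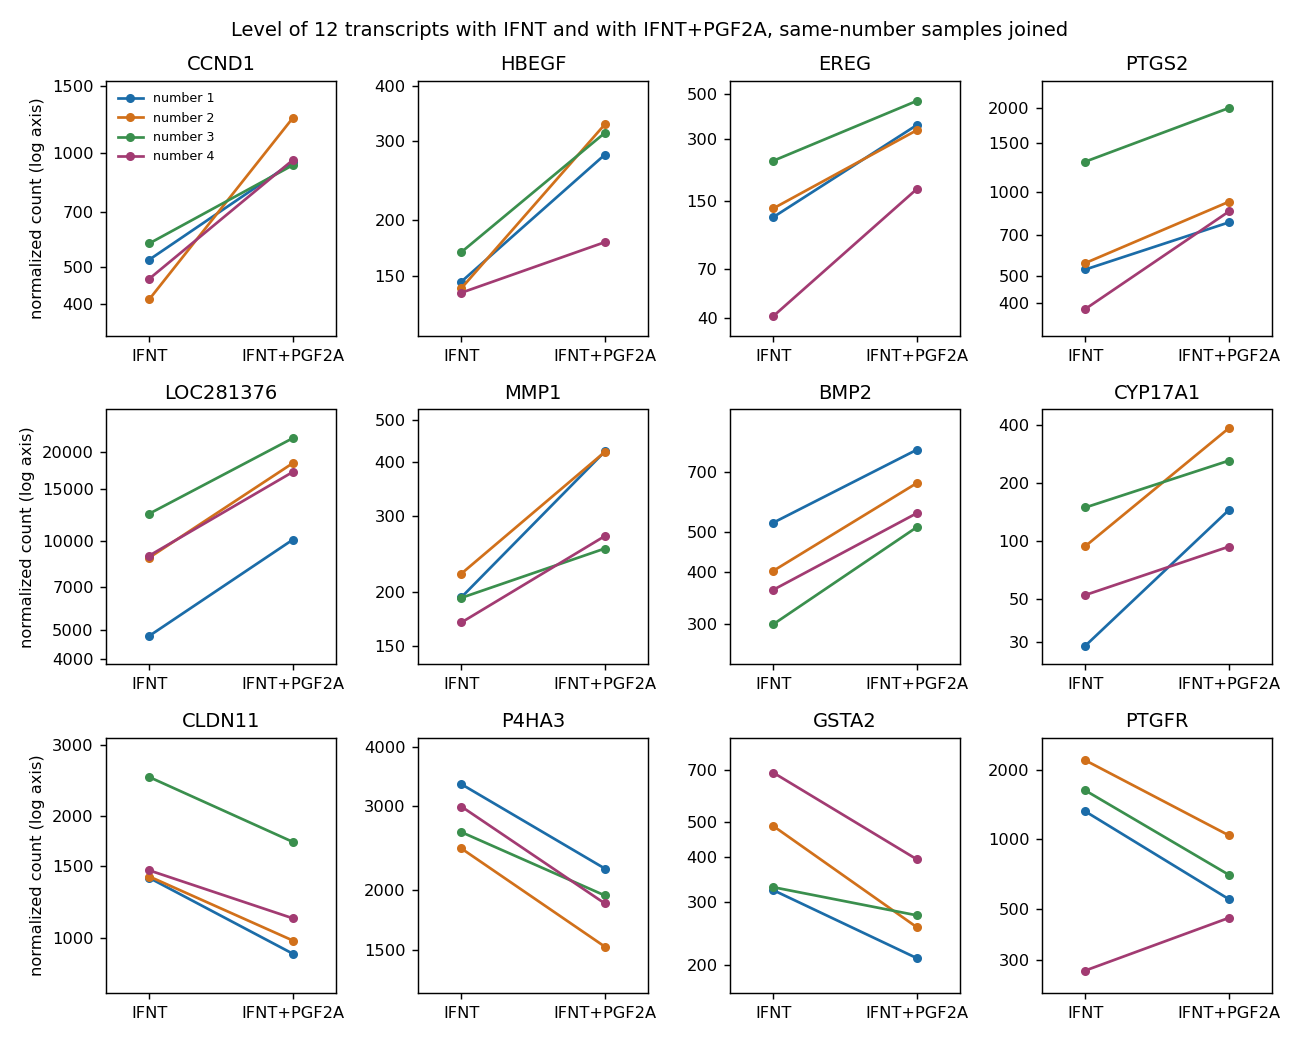
Normalized counts (log axes) of 12 transcripts with IFNT and with IFNT+PGF2A, with lines joining the samples of the same number. The lines of the first 8 genes rise and those of CLDN11, P4HA3 and GSTA2 fall in all 4 numbers, while PTGFR falls in numbers 1 to 3 and rises in number 4.

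CCND1, cyclin D1, which with CDK4 and CDK6 carries growth signals into the G1 phase, was the 1 gene that passed with or without the block. Its values were 524, 412, 578 and 467 with IFNT and 946, 1238, 929.6 and 959 with IFNT+PGF2A (log2 change 1.04, SE 0.12, adjusted p = 0.0035). The groups did not overlap, and number 2 went from the lowest to the highest value of its group. CCND1 was the 1 member of 21 tested G1 cyclins, CDKs and inhibitors to pass, and the list median was 0.12. Genes of S phase and mitosis did not follow it past the threshold: 0 of 32 passed in limma, edgeR or DESeq2 (2 at an unadjusted p under 0.05), with a median difference of 0.08 and 26 positive. RRM2, the ribonucleotide reductase subunit of S phase, differed by 0.61 (adjusted p = 0.27), from 99.3, 84, 269 and 253 to 123, 106, 366 and 648. RRM2 was higher in each pair, most in number 4, and without number 4 the difference was 0.36. CDC6, which licenses replication origins, differed by 0.50 (adjusted p = 0.51).

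Genes that cut or protect the extracellular matrix gave the highest count of any list, 7 rises and 0 falls among 22 tested proteases, inhibitors and plasminogen activator genes, although the list median was -0.01. MMP1, interstitial collagenase, was 195, 221, 194 and 170.3 with IFNT and 423, 422, 252 and 269.7 with both (log2 change 0.77, SE 0.13, adjusted p = 0.016). MMP3, stromelysin, went from 33.4, 54.7, 61.6 and 71.8 to 106, 110.3, 95.6 and 138 (log2 change 1.06, SE 0.19, adjusted p = 0.024). For MMP1 and MMP3 every IFNT+PGF2A sample lay above every IFNT sample. MMP12, macrophage elastase, went from 595, 516, 1153 and 621 to 1518, 1118, 1368 and 1201 (log2 change 0.92, SE 0.17, adjusted p = 0.032); IFNT sample 3 was already high, and the groups overlapped. The aggrecanase ADAMTS5 rose by 1.14 and ADAMTS1, a protease that also responds to the LH surge in the ovulating follicle, by 0.48. ADAMTS5 was 201, 144, 193 and 44.1 in the IFNT samples, with number 4 far below the others, and 369, 276, 283 and 201 with PGF2A added.

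TIMP3, an inhibitor of metalloproteinases bound to the matrix, rose by 0.38 (adjusted p = 0.046). A serpin was noticed among the 99 after its values were seen: LOC281376, which RefSeq lists with the synonym PAI2, plasminogen activator inhibitor 2, rose from 4775, 8792, 12384 and 8930.1 to 10113, 18369.6, 22319.7 and 17149 (log2 change 0.98, SE 0.14, adjusted p = 0.012). It rose by a similar amount in each number. ADAMTS14, which removes the amino propeptide of procollagen, and F5, coagulation factor V, were likewise seen afterwards and rose by 0.93 and 0.93.

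Among structural matrix genes P4HA3, a subunit of the prolyl hydroxylase that stabilizes collagen, fell from 3335, 2445, 2646 and 2994 to 2219, 1522, 1949 and 1875 (log2 change -0.60, SE 0.11, adjusted p = 0.024), with no overlap. P4HA3 was the 1 member of 26 collagen and matrix assembly genes to pass (list median -0.03). COL1A1, the main chain of type I collagen, differed by -0.22 (95% interval -0.41 to -0.02, adjusted p = 0.44, and -0.13 without number 4). Among the 15 largest falls were CRISPLD2, a secreted glycoprotein, which fell by 0.69, SPOCK2, a testican proteoglycan, by 0.65, EFEMP1, a fibulin, by 0.51 and TNXB, tenascin X, by 0.39 on the log2 scale. These 4 belong to no list counted here. CRISPLD2 went from 4133, 5470.0, 7971 and 6034 to 2523, 2559, 5252 and 4768, lower in each pair, and its groups overlapped. Fibroblast markers lay slightly lower in the same samples without passing: 0 of 12 passed, 4 of 12 had a positive difference, and THY1 had the smallest p (-0.43, adjusted p = 0.12). The summed level of the 12 fibroblast markers was 649445 to 1232280 with IFNT and 537542 to 1131690 with IFNT+PGF2A, and that of 12 pericyte and smooth muscle markers, of which 3 had a positive difference and 0 passed, was 120105 to 323070 and 105991 to 250923. Their part in these falls was not tested.

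NPTX2, a secreted pentraxin, was the 1 member of 12 thrombospondin, pentraxin, CCN and SPP1 genes to pass, at 827, 1680.4, 1427 and 1550.1 with IFNT and 1446, 2643, 2489.7 and 1894 with both (log2 change 0.64, SE 0.12, adjusted p = 0.032). CCN1 and CCN2, secreted targets of the YAP and TEAD factors, differed by 0.12 and 0.31 (adjusted p = 0.52 and 0.23). In the TGF-beta and BMP list of 24 genes BMP2, a ligand known in the ovary from granulosa and luteal cells, was the 1 that passed, going from 527, 403, 300.0 and 363 to 790.1, 657, 514 and 556 (log2 change 0.67, SE 0.11, adjusted p = 0.018). BMP2 stood at 1111 ± 142 in control (SD, n = 4), and all 4 samples with both agents lay below all 4 control samples.

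Of the inflammatory mediators, PTGS2, IL33 and LIF rose. PTGS2, cyclooxygenase-2, the inducible enzyme of prostaglandin synthesis, was 526, 555, 1283 and 379.6 with IFNT and 776, 921, 1998 and 849.6 with both (log2 change 0.77, SE 0.13, adjusted p = 0.016). It rose in every pair and was highest in number 3 of both groups. It was the 1 of 16 tested prostaglandin genes to pass (list median 0.05). Of 29 tested chemokines and cytokines 2 rose and 0 fell (median -0.05). IL33, an alarmin of the IL-1 family, went from 79.6, 143, 115 and 71.8 to 263, 338, 229 and 143 (log2 change 1.23, SE 0.23, adjusted p = 0.034), and LIF, a cytokine of the IL-6 family, from 100.3, 84, 135 and 178 to 175, 162, 215 and 248 (log2 change 0.72, SE 0.14, adjusted p = 0.032). The IL33 groups just failed to overlap, and the LIF groups overlapped through number 4 of IFNT. The chemokines CXCL8 and CCL2 differed by 0.08 (95% interval -0.09 to 0.25) and 0.05 (95% interval -0.13 to 0.23), and by 0.02 and 0.09 without number 4.

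**Figure D3:**
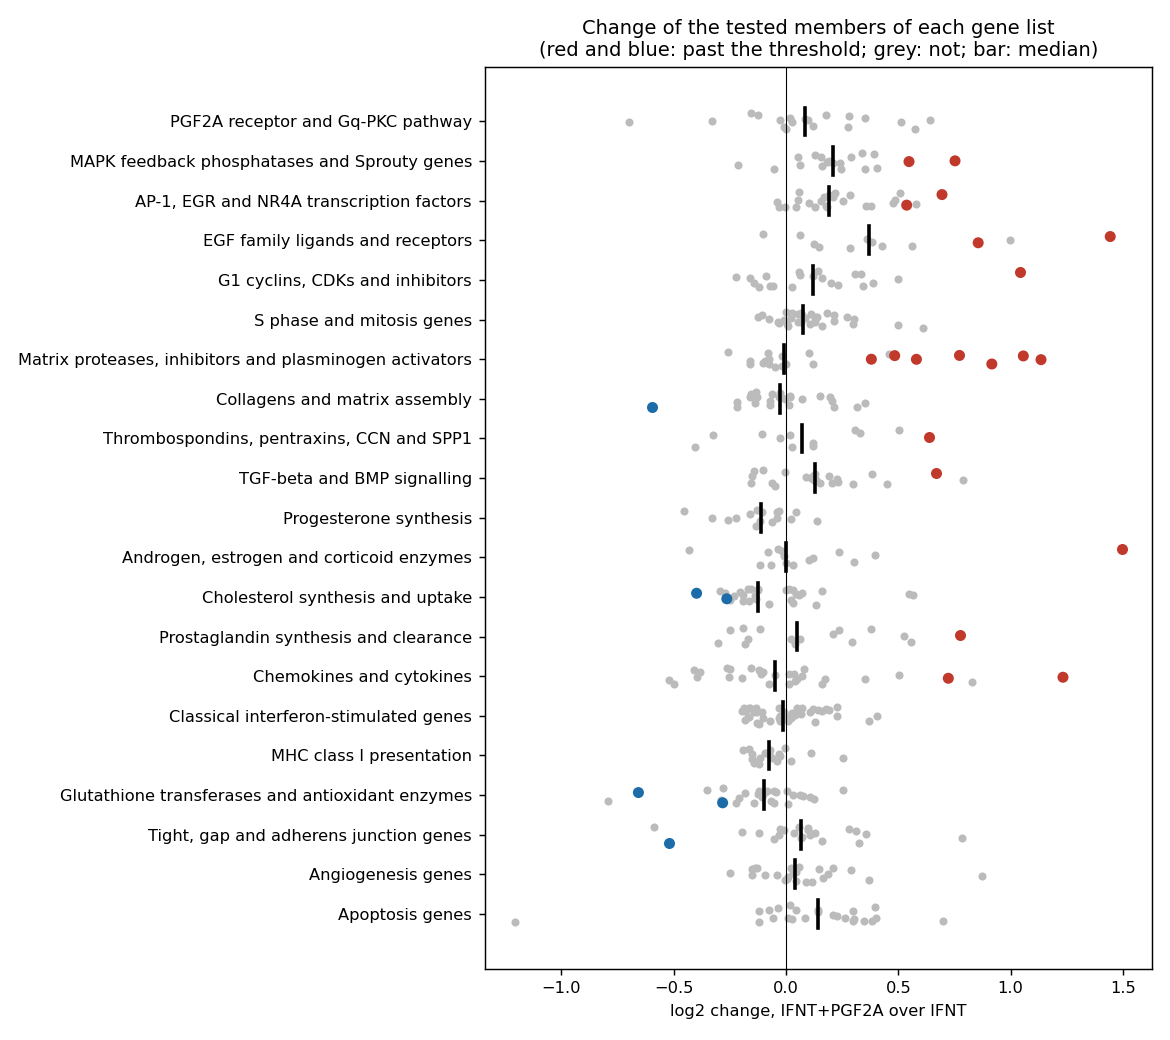
Log2 change of each tested member of 21 gene lists when PGF2A was added to IFNT (x axis), with the list median as a black bar. Coloured points passed the threshold; the 7 red points of the protease and plasminogen activator list stand apart from a median of -0.01, and the interferon-stimulated and MHC class I lists hold no coloured point.

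Transcripts of progesterone synthesis lay a little lower with PGF2A, and 0 of 16 passed in limma, edgeR or DESeq2 (2 at an unadjusted p under 0.05, median -0.11, 3 with a positive difference). STAR, which carries cholesterol into mitochondria, was 1646, 3405, 2497 and 745 with IFNT and 1324, 3058, 2560.3 and 849 with both (difference -0.06, 95% interval -0.26 to 0.13, and -0.14 without number 4). The numbers ranked alike in both groups and the pairs went both ways. CYP11A1, the side-chain cleavage enzyme, was 12892, 21016, 14267 and 17506 and 11008, 16861, 13615 and 10717 (difference -0.33, 95% interval -0.54 to -0.12, adjusted p = 0.2), lower in 4 of 4 pairs, most in number 4. Without number 4 it was -0.20 (adjusted p = 0.07). HSD3B1, which makes progesterone from pregnenolone, differed by -0.26 (adjusted p = 0.46). The LH receptor LHCGR was 798, 1362, 1466 and 595 and 572, 633, 1076 and 1307 (difference -0.22, 95% interval -0.88 to 0.43). As with PTGFR, number 4 alone was higher after PGF2A, and without number 4 the difference was -0.68 (adjusted p = 0.063).

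CYP17A1, the hydroxylase and lyase that opens the path to androgens, rose in each pair. Its values were 28.5, 93.8, 149 and 52.3 with IFNT and 145, 384, 261 and 93.3 with both (log2 change 1.50, SE 0.30, adjusted p = 0.039). Numbers differed several-fold in level, so the groups overlapped. It was the 1 of 15 tested androgen, estrogen and corticoid genes to pass, and the list median was 0.00.

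Of 29 tested genes of cholesterol synthesis and uptake, 2 fell, 0 rose and 11 had a positive difference (median -0.13). MVK, mevalonate kinase, went from 1692, 2290.0, 2242 and 1809.6 to 1333, 1864, 1803 and 1163 (log2 change -0.40, SE 0.07, adjusted p = 0.02), and FDFT1, squalene synthase, from 8665, 10970.3, 8128 and 5800.2 to 7386, 9099, 6966 and 4607 (log2 change -0.26, SE 0.05, adjusted p = 0.033). Both were lower in each pair with overlapping groups. ACSS2, which makes cytosolic acetyl-CoA from acetate, was noticed afterwards among the 99 and fell by 0.37 on the log2 scale (adjusted p = 0.015).

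Of 29 glutathione transferases and antioxidant enzymes, 2 fell and 0 rose (median -0.10). GSTA2, a glutathione transferase of the alpha class, was 324, 488, 329.8 and 688 with IFNT and 209, 255, 275 and 394 with both (log2 change -0.66, SE 0.10, adjusted p = 0.014). GSTA4, of the same class, which conjugates products of lipid peroxidation, fell by 0.28 (adjusted p = 0.038), and GSTA1 differed by -0.79 (adjusted p = 0.082). GSTA1 and GSTA2 are close in sequence, so the split of reads between them is uncertain.

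Among junction genes CLDN11, a claudin of tight junctions, fell from 1405, 1417, 2496 and 1467 to 912, 983, 1725 and 1116 (log2 change -0.52, SE 0.08, adjusted p = 0.012). IFNT sample 3 was well above the other IFNT samples, and the fall was seen in each pair. It was the 1 of 22 tested junction genes to pass (median 0.07). CGN, cingulin, a cytoplasmic tight junction protein outside that list, fell by 0.50. SCG2, secretogranin II, a granule protein of large luteal cells, went from 9468, 11066, 3448 and 2798 to 7537, 8780.1, 2828 and 2099.8 (log2 change -0.34, SE 0.06, adjusted p = 0.032). It was the 1 of 12 large luteal markers to pass (median -0.06), and its level was higher in numbers 1 and 2 than in 3 and 4 of both groups.

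No gene of the classical interferon-stimulated list passed the test when PGF2A was added. Of 43 tested, 0 passed in limma, edgeR or DESeq2, and the median difference was -0.02. In limma 0 of the 43 had an unadjusted p under 0.05, against 1380 of all 14122 genes tested. ISG15, a ubiquitin-like modifier, was 24184, 36554, 32988 and 41980.2 with IFNT and 23098, 33133, 32653 and 31151 with both, and the antiviral GTPase MX1 was 74184, 97311, 89995 and 58848 and 70602, 88522, 90241 and 46703. The groups overlapped for both. The 95% intervals of the difference, -1.39 to 1.07 for ISG15 and -1.26 to 0.99 for MX1, are too wide to show that the levels were alike. The same-number differences with IFNT were -0.07, -0.14, -0.01 and -0.43 for ISG15 and -0.07, -0.14, 0.00 and -0.33 for MX1. The intervals use a spread shared with the samples without IFNT. There the differences ran from -0.59 to 2.42 for ISG15 and from -0.73 to 2.62 for MX1. For genes this variable without IFNT the fit could miss a moderate change. EIF2AK2, the kinase PKR, and SAMD9 were low in IFNT sample 4 alone, at 4868, 4945, 5462 and 1342 and 8167, 8851, 9191 and 2425, against 5032, 5146, 4953 and 4237 and 8490.1, 9162, 8613 and 6714 with both agents. Without number 4 they differed by -0.01 and 0.00. Genes of MHC class I presentation gave 0 of 19 past the threshold in limma, edgeR or DESeq2, with 0 at an unadjusted p under 0.05 (median -0.08, 3 with a positive difference). In the angiogenesis list 0 of 24 passed in limma and 1, FGF1, in edgeR and in DESeq2 (4 had an unadjusted p under 0.05 in limma). FGF1, a growth factor for endothelial cells, stood at 0.87 (adjusted p = 0.072) and VEGFA at 0.29 (95% interval 0.00 to 0.58). In the apoptosis list 0 of 24 passed in limma, edgeR or DESeq2, with 6 at an unadjusted p under 0.05 and a median of 0.14. The BH3-only gene BIK stood at -1.21 (adjusted p = 0.16).

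In the fit without number 4, in which 2.37% of all tested genes passed, the count moved by more than 1.5 times in 9 of the 30 lists. It went from 2 to 9 of the 25 AP-1, EGR and NR4A genes, from 2 to 7 of the 29 cholesterol genes and from 2 to 5 of the 29 glutathione and antioxidant genes. It went from 1 to 3 of the 24 TGF-beta and BMP genes, of the 22 junction genes and of the 12 large luteal markers, and from 1 to 2 of the 16 prostaglandin genes. The receptor and Gq list and the MHC class I list went from 0 to 1 of 19 each.

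The 2 largest rises by size lay in weakly expressed genes. TCHHL1, a trichohyalin-like protein, went from 1.97, 0.977, 10.3 and 3.08 to 32.2, 41.5, 26 and 21.3 normalized counts (log2 change 3.12, SE 0.55, adjusted p = 0.024). SCIMP, a membrane adaptor of immune cell signalling, went from 3.93, 9.77, 9.25 and 3.08 to 47.9, 57.7, 35.3 and 16.2 (log2 change 2.51, SE 0.38, adjusted p = 0.013). Neither gene overlapped between groups. CD24, a glycoprotein anchored on the cell surface, was 32.4, 64.5, 88.3 and 24.6 with IFNT and 210.0, 292, 221 and 86.2 with both (log2 change 1.99, SE 0.27, adjusted p = 0.0094), and number 4 was lowest in both groups. PTPN22, a tyrosine phosphatase of lymphoid cells, was 22.6, 20.5, 22.6 and 7.18 and 50.8, 89, 67.5 and 54.8 (log2 change 1.91, SE 0.38, adjusted p = 0.038). The PTPN22 groups did not overlap either. SCIMP and PTPN22 are known from leukocytes, and of leukocyte markers 0 of 7 tested for macrophages, 0 of 2 for T and NK cells and 0 of 2 for B cells passed in limma, edgeR or DESeq2, with 0 of the 11 at an unadjusted p under 0.05 and 0 of the 11 with a positive difference. The summed level was 606 to 853 with IFNT and 581 to 841 with both for macrophage markers, 98.5 to 139 and 74.9 to 154 for T and NK cell markers, and 28.7 to 61.5 and 18.6 to 41.5 for B cell markers.

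Other rises of more than 2-fold were GCSAML (2.29), NPS, neuropeptide S (1.73), MCOLN3, a lysosomal cation channel (1.32), ADGRE3, an adhesion G protein-coupled receptor (1.26), TMEM26 (1.15), the transcription factor ONECUT2 (1.09) and, outside the naming rule, the cadherin FAT3 (1.04). GCSAML was at 1.97, 2.93, 0 and 4.1 counts with IFNT and 9.77, 17.2, 5.19 and 10.1 with both, so its fitted change depends on the pseudocount. ADGRE3 differed more than 10-fold between numbers, at 10.8, 118, 236 and 101 with IFNT and 26.4, 406, 475 and 206 with both, yet rose in each pair. ONECUT2 went from 78.7, 78.2, 90.4 and 58.5 to 182, 191, 131 and 149 without overlap. FGF7, a fibroblast growth factor that acts on epithelial cells, rose from 319, 365, 306 and 288 to 515, 542, 612 and 637 (log2 change 0.85, SE 0.11, adjusted p = 0.0075), again without overlap. The largest fall among the 21 was that of FBXO10, a substrate adaptor of ubiquitin ligases, from 265, 362, 202 and 308 to 142, 211, 115 and 117 (log2 change -0.97, SE 0.11, adjusted p = 0.0033). FAM166B fell by 0.72, SLAIN1, a microtubule-associated protein, by 0.68, VIPR2, a receptor of vasoactive intestinal peptide, by 0.45, NLRX1, a mitochondrial regulator of innate signalling, by 0.45 and LOC614614 by 0.43 on the log2 scale.

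The remaining marker lists gave few or no calls. Of 12 endothelial markers 0 passed and 3 had a positive difference (median -0.04, 1 at an unadjusted p under 0.05), with a summed level of 11639 to 32371 with IFNT and 12685 to 27793 with both. Of 6 steroidogenic markers 0 passed and 0 had a positive difference (median -0.12, 2 at an unadjusted p under 0.05). Of 5 tested neutrophil and red cell markers 0 passed, 3 had an unadjusted p under 0.05, and the summed level was 503 to 2676 and 303 to 2107.5. The 12 large luteal markers summed to 162616 to 309644 with IFNT and 176201 to 258639 with both. In these 4 lists edgeR and DESeq2 called SCG2 alone.

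Other genes among the 99 were picked out after their values were seen. WNT5A, a ligand of non-canonical WNT signalling, rose by 0.63, CYP26B1, which degrades retinoic acid, by 0.63, S1PR3, a sphingosine-1-phosphate receptor, by 0.53, and NT5E, the ectonucleotidase that makes adenosine, by 0.30. RCAN1, an inhibitor of calcineurin that calcium signals induce, rose by 0.45 from 2836, 1865, 2552 and 2396 to 3550.2, 2469, 3476 and 3742. VLDLR, a lipoprotein receptor, rose by 0.47, the axon guidance cue NTN1 by 0.95 and the zinc finger repressor GFI1 by 0.79. TSC22D3, also known as GILZ, a glucocorticoid-induced leucine zipper protein, fell from 4727, 6312, 4783 and 3625 to 3711, 5077, 4003 and 2969.7 (adjusted p = 0.0497).

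The same 99 genes were then read in the samples without IFNT, which are different libraries of the same numbers. The spread used to select the 99 was shared with these samples, so this reading is not independent of the selection. Of the 99, 98 had the same direction when PGF2A was compared with control, against 71.6% of all tested genes. The exception was GFI1 at -0.03. The median change of the 78 rises was 0.75 with IFNT and 0.42 without it, and that of the 21 falls -0.45 and -0.26. Of the 99, 93 had the larger change with IFNT, the setting in which they were selected; of the 23 genes that passed in PGF2A against control (0.163% of those tested), 13 had the larger change without IFNT. Those 23 all went the same way with IFNT, and 16 of them also passed there, which is 69.6% of the 23 and 16.2% of the 99.

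No gene passed the test of the difference between the settings, the interaction: 0 of 14122 in limma, 0 in edgeR and 0 in DESeq2. The unadjusted p was under 0.05 for 219, 220 and 149 genes by these tools. Each count lies below 0.05 of the 14122 genes, the share that no difference at all would give. Such low counts do not show that the responses were alike in the 2 settings. Without number 4 the limma count was 536. In the authors' deposited interaction table the adjusted p was 1 for all 18675 genes. For CCND1 the change was 1.04 with IFNT and 0.87 without it, a difference of 0.17 (95% interval -0.20 to 0.54). CYP17A1 rose by 1.50 with IFNT and differed by 1.49 without it (difference 0.00, 95% interval -0.90 to 0.91). EREG differed by 0.74 without IFNT, with a difference between settings of 0.71 (95% interval -0.09 to 1.50). For STAR the PGF2A difference was -0.44 without IFNT and -0.06 with it, and the difference between settings of 0.38 (95% interval 0.11 to 0.66, unadjusted p = 0.01) did not pass either. NPTX2 and MMP3 were among the genes with the larger value without IFNT, 1.05 and 1.39 against 0.64 and 1.06.

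**Figure D4:**
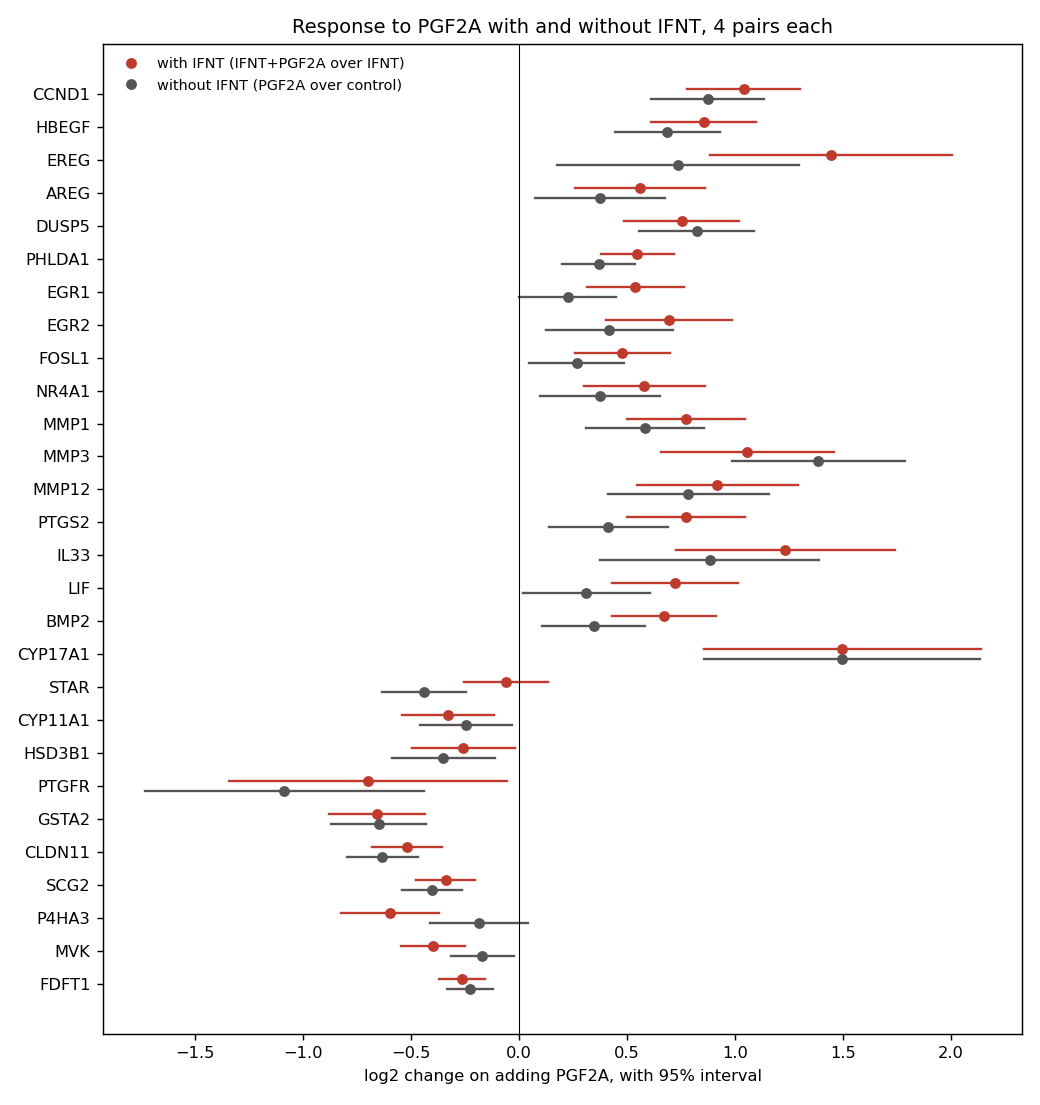
Log2 change on adding PGF2A for genes named in the text, with IFNT in red and without it in grey; bars are 95% intervals of the blocked fit, 4 pairs each. CCND1 lies to the right of zero and CLDN11 to the left in both settings.

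The authors' deposited table of these 2 groups listed 9 of 18149 genes below an adjusted p of 0.05 (0.0496%), of which 8 were higher with IFNT+PGF2A and 1 was lower. All 8 that were higher in the authors' deposited table are among the 78 rises here: CCND1, FGF7, PHLDA1, ONECUT2, PTPN22, TCHHL1, SCIMP and CD24. The lower one in the authors' deposited table was the alpha globin gene HBA1, which had 25, 24, 25 and 25 reads in IFNT samples 1 to 4 and 0 reads in all 4 IFNT+PGF2A samples. In the blocked fit it did not pass (adjusted p = 0.082), and HBA, its near-identical copy, had 259, 1679, 134 and 63 reads with IFNT and 259, 1227, 1112 and 44 with both.

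**Figure D5:**
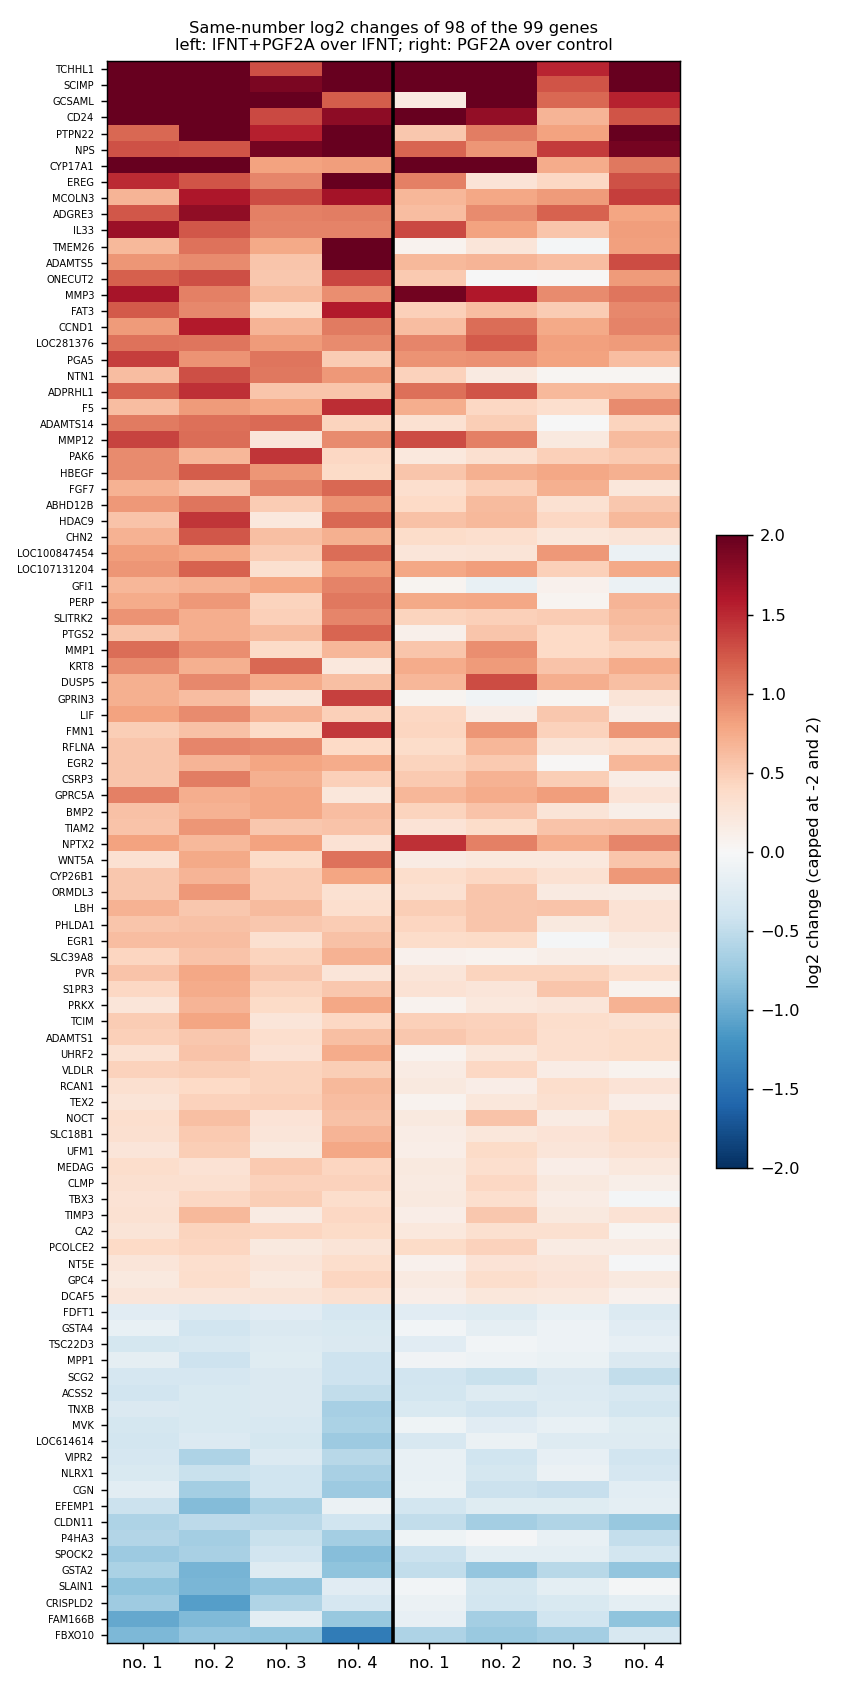
Log2 change of 98 of the 99 genes in each same-number pair, IFNT+PGF2A over IFNT in the 4 left columns and PGF2A over control in the 4 right columns, coloured from blue (lower) to red (higher) and capped at -2 and 2. The left columns are of 1 colour within each row, which the 4 of 4 pairs above describe, and the right columns are paler in most rows, as 93 of the 99 genes had the larger mean change with IFNT.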

How the data were processed

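RNA of 16 cultures was sequenced. The deposited table holds normalized counts, a signal that the authors made by dividing read counts by 1 size factor per sample (0.963 to 1.071); the tools listed, per the submitters' processing notes, are RSEM 1.2.8, Bowtie2 2.2.5, HISAT2 2.0.4 and DESeq2, while build, annotation and strand setting are not given in these sources. All values came back to whole reads within 0.01 read. The authors' deposited tables also give a log2 fold change, its standard error, a test score and a p-value per gene. Used here were 2 of the 7 tables as deposited, that of IFNT against IFNT+PGF2A and that of the interaction. Names came from the files, with 25 turned into dates restored by gene ID through RefSeq (17768 of 18705 IDs matched).

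Genes with at least 10 normalized counts in at least 4 of 16 samples were tested (14122) with limma 3.58.1 in R 4.3.3, with an intensity trend, on log2(normalized count + 0.5), with group means and the sample number as a block over all 16 samples, and Benjamini-Hochberg adjustment over all tested genes at 0.05. The numbers were taken as pairs because deviations from group means correlated at 0.352 to 0.719 in all 24 same-number pairs and at most at 0.0402 in the 72 others. edgeR 4.0.16 (quasi-likelihood) and DESeq2 1.42.0 on recovered reads, each with the block, were alternatives; the fitting scripts were tested on simulated data. Intervals are 95% intervals of the fit. Gene totals of 23786067 to 25906276 reads per sample set the counting precision, and PCR copies are not told apart.

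The genes named are the 15 largest rises and falls among those past the threshold with 4 of 4 pairs alike, the members of each list past the threshold or else the 2 with the smallest p, a fixed set of hormone response genes, and those past the threshold in the authors' table; others are said to be picked afterwards, and a few genes that the rule names are not reported here. Members and lists were chosen with earlier results of these data known. MCM4, MMP10, CEBPB, CYP11B1, ABCC4, IFIT1, BST2, TNFRSF10D, ADGRE1 and TRAC of the lists were not analysed here.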

Additional observations from a re-analysis of the deposited data

Results flagged for a closer look

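In 184 groups of 4 samples, those of the 92 genes named by rule in the 2 groups, 9 held a sample set apart from its group by Dixon's criterion on the log2 scale, and chance alone sets about 1 in 20 groups apart. In IFNT sample 4 these were PTPN22 at 7.18 normalized counts (the others 20.5 to 22.6), RASGRP1 at 34.9 (111 to 139), EIF2AK2 at 1342 (4868 to 5462) and SAMD9 at 2425 (8167 to 9191). IFNT sample 3 had CLDN11 at 2496 (1405 to 1467). IFNT+PGF2A sample 2 had CCND1 at 1238 (929.6 to 959). IFNT+PGF2A sample 1 had ESAM, an endothelial junction protein, at 497 (836 to 879.7), IL2RB, an interleukin receptor chain of T and NK cells, at 55.7 (31.4 to 34.3) and ISG15 at 23098 (31151 to 33133).

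RASGRP1 was higher with PGF2A in every pair with IFNT and lower in every pair without it (log2 difference 0.64 and -0.44). The 0.64 was 0.27 without number 4. The same-number differences were 0.02, 0.61, 0.20 and 1.74 with IFNT and -0.82, -0.57, -0.38 and -0.0003 without it. Number 1 with IFNT and number 4 without it thus hardly changed. The difference between the settings was 1.08 with an unadjusted p of 0.0054, and its adjusted p in limma was 1.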

How the results depend on the processing

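Of genes changed when PGF2A was added to IFNT, 99 in all, the count was 1 without the replicate block, 1 with only the 8 samples compared (HBA1), 59 without the intensity trend and 202 with DESeq2; leaving out 1 number from every group gave 0 to 334, and leaving out IFNT sample 4 alone, chosen after seeing the data, gave 206, with 97 of the 99 shared. The count for PGF2A against control, 23, was 0 without the replicate block, 81 with its 8 samples only, 8 without the trend, 103 with DESeq2, 122 without IFNT sample 4 and 0 to 96 without 1 number. A pseudocount of 1 or 5, no filter, TMM scaling and edgeR gave 99, 98, 86, 92 and 94 for the first count, and the interaction gave 0 under every alternative run. The cause of these shifts was not tested. None of the 99 genes reversed under the 14 alternatives, and 51 passed in all 7 that keep the block, the samples and the numbers. Among genes that did not pass, signs reversed without 1 number for EIF2AK2 (-0.012 to 0.588 over these 4 fits), CD68 (-0.166 to 0.022), CD3E (-0.098 to 0.115), STAR (-0.144 to 0.023) and LHCGR (-0.677 to 0.070), and without IFNT sample 4 for ESAM (0.003), CD3E (0.107), MX1 (0.260) and ISG15 (0.338). Over the same 4 fits ESAM lay at -0.254 to -0.054, MX1 at -0.180 to -0.068 and ISG15 at -0.213 to -0.074. Without IFNT sample 4, IFNT+PGF2A sample 4 had no same-number IFNT partner, and number 4 was fitted with control and PGF2A sample 4. In numbers 1 to 3 the same-number differences were -0.07, -0.14 and -0.01 for ISG15 and -0.07, -0.14 and 0.00 for MX1. The positive ISG15 and MX1 values of that fit therefore do not rest on same-number pairs alone.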

Other observations

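HBA1 was read in steps: 24 or 25 reads in the 4 IFNT samples, in control sample 1 and in PGF2A sample 3, and 0 reads in the other 10. HBA carried 44 to 4193 reads in the same 16 samples, and the beta globin gene HBB 0 or 1. A count of 0 allows up to 3 reads per sample, counting error only.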
